A study of Mus musculus with 18 samples.

Results

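Expression of Tgfb2, Bmp6, Inhbb, Sost and Hhip, 5 genes of secreted or cell-surface regulators of the TGF-beta, BMP, Wnt and hedgehog pathways, was examined in whole aortas of mice infused with angiotensin II. The genes were chosen by their measured signals on these same arrays: the study had listed each of them as differing between groups by 2-fold or more, and every probe that its lists paired with one of these symbols was included. This gave 5 of 1342 genes that have a name here, and 6 probes (2 for Hhip and 1 for each of the other genes) of 46624 on the array. The arrays were hybridised with aortic RNA of 18 male ApoE-/- mice, 1 array per mouse. All mice, saline controls included, lacked apolipoprotein E throughout the body, were fed standard chow and were 13 to 14 weeks old at the start of infusion. There were 5 mice that received angiotensin II at 1.44 µg/kg/min for 4 weeks and developed aneurysms (AAA), 7 mice that received the same infusion and did not (no AAA), and 6 mice that received saline for 4 weeks (saline). AAA and no AAA mice were separated by outcome and not by treatment. The aorta was taken from the arch to the iliac bifurcation, so the values average dilated and undilated segments and every cell type of the wall.

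TGF-beta and activin ligands bind paired serine/threonine kinase receptors on the cell surface and act through Smad2 and Smad3, whereas BMP ligands act through Smad1, Smad5 and Smad8. TGF-beta signalling is known for its part in matrix production and in smooth muscle differentiation in the aortic wall, and mutations of the human TGFB2 gene cause a familial form of aortic aneurysm. Wnt signalling is limited by secreted antagonists such as sclerostin, and hedgehog signalling by Hhip, a membrane protein that binds and sequesters hedgehog ligands.

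Levels are given as log2 of the deposited average signal over the median signal of the same array, so that 0 is the array median and 1 unit is a 2-fold step. A probe was taken as detected where the deposited detection score was over 0.95, and 21434 probes detected on at least 5 of 18 arrays were tested. Per array, 20057 to 21052 probes were detected in AAA mice, 19438 to 20676 in no AAA mice and 18647 to 19661 in saline mice. All 6 probes passed this filter. Of these, 5 were detected on 18 of 18 arrays and the dimmer Hhip probe on 17 (its score on AAA 1 was 0.732). Each value of the 6 probes averaged 18 to 53 beads, with a standard error over beads of 0.0492 to 0.151 on the log2 scale, against a spread between mice of 1 group of 0.14 to 0.99 (SD). The error over beads leaves out labelling and hybridisation. The 3 groups lay on 3 BeadChips: saline on the first alone, no AAA 1 to 6 on the second, and AAA 1 to 5 with no AAA 7 on the third. Infusion and BeadChip cannot be told apart in any comparison with saline.

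The stretches of DNA just before the RefSeq starts of the genes are shown. The regions of Bmp6, Sost and Hhip, which correlated with each other over the 18 arrays (Pearson r = 0.71 to 0.89), can be set beside that of Inhbb, which did not (-0.40 to 0.07 with these). Tgfb2 had r = 0.42 to 0.73 with Bmp6, Sost and Hhip, and 0.41 to 0.71 as deviations from group means. All 5 genes matched a RefSeq promoter (build GRCm38.p6, from 250 bases before the start), and they are printed 5′ to 3′ on the strand of the gene. Bmp6 lies at chr13:38345466-38345715 (plus strand), Sost at chr11:101967016-101967265, Inhbb at chr1:119422249-119422498 and Hhip at chr8:80058061-80058258 (all minus strand). For Hhip the 52 bases nearest its start are left out, since the annotated gene extends over them. Capitals mark matches to any motif searched.
Bmp6: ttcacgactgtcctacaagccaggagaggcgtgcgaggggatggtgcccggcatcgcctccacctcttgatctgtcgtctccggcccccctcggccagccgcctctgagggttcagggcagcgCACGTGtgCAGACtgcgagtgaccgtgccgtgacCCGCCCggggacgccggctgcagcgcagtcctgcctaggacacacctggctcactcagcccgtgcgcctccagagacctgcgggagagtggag
Sost: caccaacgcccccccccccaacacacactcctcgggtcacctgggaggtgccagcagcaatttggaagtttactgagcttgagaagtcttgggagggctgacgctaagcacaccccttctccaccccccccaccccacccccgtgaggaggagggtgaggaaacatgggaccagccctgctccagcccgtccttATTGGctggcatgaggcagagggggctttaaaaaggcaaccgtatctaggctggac
Hhip: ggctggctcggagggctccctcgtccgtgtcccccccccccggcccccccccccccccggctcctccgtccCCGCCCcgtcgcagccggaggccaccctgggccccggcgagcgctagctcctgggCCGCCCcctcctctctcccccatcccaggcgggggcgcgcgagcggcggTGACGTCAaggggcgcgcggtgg
Inhbb: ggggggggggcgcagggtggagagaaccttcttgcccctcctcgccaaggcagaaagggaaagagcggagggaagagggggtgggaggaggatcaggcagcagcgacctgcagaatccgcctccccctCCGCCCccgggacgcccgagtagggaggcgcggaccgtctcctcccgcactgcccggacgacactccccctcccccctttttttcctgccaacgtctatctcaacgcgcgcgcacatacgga
For Tgfb2, whose annotated gene also covers its window, only the short stretch from the E box to the TATA box is printed, at chr1:186706015-186706040 on the minus strand.
Tgfb2: CACGTGgtttggggagcacaTATAAA

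Both strands of the 250 bases were searched for 11 motifs, none of them a test of binding. The E box CACGTG was found in Tgfb2 (from 51 bases before the start) and Bmp6 (from 127 bases), and in 6.05% of 27025 promoters of the same length. A cyclic AMP response element, TGACGTCA, was found in Hhip (from 75 bases before the start), and in 1.62% of promoters. The TATA box TATAAA was found in Tgfb2 alone of the 5 (31 bases before the start), against 13% of promoters. The SP1 site GGGCGG was found in Bmp6, Inhbb and Hhip, against 32.9% of promoters. The CCAAT box was found in Tgfb2 and Sost, against 34.5%. The short SMAD motif CAGAC was found in Tgfb2 and Bmp6, against 42.1%. Bmp6 carried this motif 2 letters after the E box, without overlap. No match was found in any of the 5 windows to the SMAD box GTCTAGAC (0.174% of promoters), the BMP-SMAD element GGCGCC (9.54%), the TCF/LEF site CTTTGA (14%), the GLI site GACCACCCA (0.211%) or the CArG box (1.4%), the element that serum response factor binds in many smooth muscle genes. These windows held no motif that was shared by Bmp6, Sost and Hhip and missing from Inhbb.

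Tgfb2 encodes TGF-beta 2, a ligand stored in latent form in the matrix. Its level was 4.74, 4.95, 4.52, 5.23 and 5.68 on AAA 1 to 5. In no AAA the lowest, median and highest levels were 5.17, 5.53 and 5.81, and in saline 3.99, 4.34 and 4.54. In bulk tissue such as this, fewer cells of a type and less RNA per cell cannot be told apart. Both infused groups lay above saline, but the lowest AAA array just overlapped the highest saline array, and AAA overlapped no AAA. Mean levels were 5.02 ± 0.45 in AAA mice, 5.55 ± 0.22 in no AAA mice and 4.30 ± 0.19 in saline mice (SD; n = 5, 7 and 6). The study had listed Tgfb2 in no AAA against saline, where the mean was 2.38-fold higher with no overlap, and that value is a description. In the other 2 comparisons, which share arrays with that one, Tgfb2 was lower in AAA mice than in no AAA mice (difference -0.53, 95% interval -0.86 to -0.19, limma adjusted p = 0.027) and higher in AAA mice than in saline mice (0.72, interval 0.37 to 1.07, limma adjusted p = 0.002). Being listed for no AAA above saline favours the direction seen in each of these comparisons. The lower level in AAA mice lost its call when any 1 of AAA 1, AAA 2, AAA 3, no AAA 4 or no AAA 6 was left out (limma adjusted p = 0.052 to 0.10).

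Bmp6 encodes a BMP ligand that, in the liver, induces hepcidin. It had levels of 0.48, 2.12, 1.14, 1.94 and 2.22 on AAA 1 to 5. The lowest, median and highest levels were 2.18, 2.56 and 2.97 in no AAA mice, and 1.35, 1.46 and 1.66 in saline mice. AAA arrays lay on both sides of the narrow saline range, with AAA 1 and AAA 3 below it and the other 3 above it. Means were 1.58 ± 0.75 in AAA mice, 2.53 ± 0.26 in no AAA mice and 1.48 ± 0.14 in saline mice (SD; n = 5, 7 and 6). As listed by the study, no AAA stood 2.07-fold above saline without overlap. Bmp6 was lower in AAA mice than in no AAA mice (difference -0.95, interval -1.43 to -0.48, limma adjusted p = 0.0065), and this call was kept when each array was left out in turn (limma adjusted p = 0.0025 to 0.027). The unequal-variance test gave it an adjusted p of 0.18. The comparison shares the no AAA arrays whose high values had led to Bmp6 being listed, which favours a lower level in AAA mice. Leaving out single arrays does not remove that. Between AAA and saline the difference was 0.09 with an interval of -0.40 to 0.58 (limma adjusted p = 0.78), which leaves room for a shift of over 0.5 in level.

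Inhbb encodes the inhibin beta B subunit, which forms activin B as a homodimer and inhibin B together with the alpha subunit. It had the reverse order of groups from Bmp6 among infused mice. Its levels were 2.99, 2.43, 3.70, 2.44 and 2.25 on AAA 1 to 5. The lowest, median and highest levels were 1.45, 2.13 and 2.79 in no AAA mice and 0.52, 0.82 and 0.98 in saline mice. Every infused mouse lay above every saline mouse, and AAA and no AAA overlapped. Means were 2.76 ± 0.59 in AAA mice, 2.04 ± 0.44 in no AAA mice and 0.80 ± 0.15 in saline mice (SD; n = 5, 7 and 6). The AAA mean was 3.91-fold and the no AAA mean 2.37-fold that of saline, both listed by the study and given without a test. In the comparison that had not listed it, Inhbb was higher in AAA mice than in no AAA mice (difference 0.72, interval 0.25 to 1.19, limma adjusted p = 0.03). That call was lost without any 1 of AAA 1, AAA 3, no AAA 3, no AAA 5 or no AAA 7 (limma adjusted p = 0.052 to 0.11), and the difference without AAA 3 was 0.49.

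Sost encodes sclerostin, best known as the osteocyte product that binds the Wnt co-receptors Lrp5 and Lrp6. Levels were 0.91, 2.44, 1.56, 2.35 and 2.77 on AAA 1 to 5. In no AAA the lowest, median and highest levels were 3.16, 3.38 and 3.82, and in saline 2.02, 2.26 and 2.70. No AAA stood apart from both other groups, and AAA arrays again spread to either side of the saline range. Means were 2.01 ± 0.76 in AAA mice, 3.42 ± 0.24 in no AAA mice and 2.30 ± 0.26 in saline mice (SD; n = 5, 7 and 6). The study had listed Sost in AAA against no AAA (2.66-fold lower) and in no AAA against saline (2.17-fold higher), and these are descriptions. Between AAA and saline the difference was -0.30 with an interval of -0.81 to 0.21 (limma adjusted p = 0.35). Of the bone and cartilage markers, 4 of 9 had a named probe (Acan, Comp, Sox9 and Scx). Their summed signal over the array median ran from 76.2 to 164 in AAA mice, 28.1 to 50.5 in no AAA mice and 20.2 to 27.3 in saline mice, an order of groups unlike that of Sost. The means of Acan, Comp and Sox9 had the order of the sum. Scx did not, at 3.16 in AAA mice, 3.34 in no AAA mice and 1.9 in saline mice, and was highest in no AAA mice, as Sost was. No named probe for Bglap, Ibsp, Sp7 or Dmp1, markers of bone-forming cells, was held here.

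Hhip, the hedgehog-interacting protein, was measured by a brighter and a dimmer probe. On the brighter probe AAA 1 to 5 had levels of 0.91, 2.51, 1.89, 3.33 and 3.17. The lowest, median and highest levels were 3.35, 3.65 and 4.09 in no AAA mice and 2.69, 3.29 and 3.78 in saline mice. On the dimmer probe AAA 1 to 5 had -0.19 (not detected), 0.62, 0.37, 1.42 and 1.44, no AAA ran from 1.52 through a median of 1.76 to 2.26, and saline from 0.83 through 1.38 to 1.72. All AAA arrays lay below all no AAA arrays on both probes, by a small margin for AAA 4 and AAA 5, while saline overlapped both infused groups. On the brighter probe means were 2.36 ± 0.99 in AAA mice, 3.66 ± 0.24 in no AAA mice and 3.22 ± 0.45 in saline mice, and on the dimmer probe 0.73 ± 0.70 in AAA mice, 1.78 ± 0.24 in no AAA mice and 1.31 ± 0.36 in saline mice (SD; n = 5, 7 and 6). The probes correlated at r = 0.97 over the 18 arrays, and at 0.95 as deviations from group means. Their differences had the same sign in every comparison. Both probes were included because the study had listed each as lower in AAA against no AAA, so agreement there was fixed by the choice. An Hhip probe that did not differ would have no name here.

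Hhip had been listed in AAA against no AAA (2.46-fold lower on the brighter and 2.08-fold lower on the dimmer probe, descriptions). Both comparisons with saline share arrays with that one. Being listed there favours a lower AAA level and a higher no AAA level against saline. Against saline, AAA was lower by a difference of -0.86 on the brighter probe (interval -1.53 to -0.19, limma adjusted p = 0.04). The dimmer probe gave -0.58 (interval -1.09 to -0.07, limma adjusted p = 0.068), which missed the threshold here, and passed it under quantile normalization (limma adjusted p = 0.025) and with array weights (0.04). Leaving out any 1 of AAA 1, AAA 2, AAA 3, saline 1, saline 2, saline 3 or saline 6 ended the call on the brighter probe, and without AAA 1 the difference was -0.50 (limma adjusted p = 0.13). No AAA against saline gave 0.44 (interval -0.18 to 1.06, limma adjusted p = 0.24) and 0.48 (interval 0.01 to 0.95, limma adjusted p = 0.089). On the dimmer probe this became a call without AAA 1 (limma adjusted p = 0.044), an array of neither group that enters the shared spread.

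**Figure D1:**
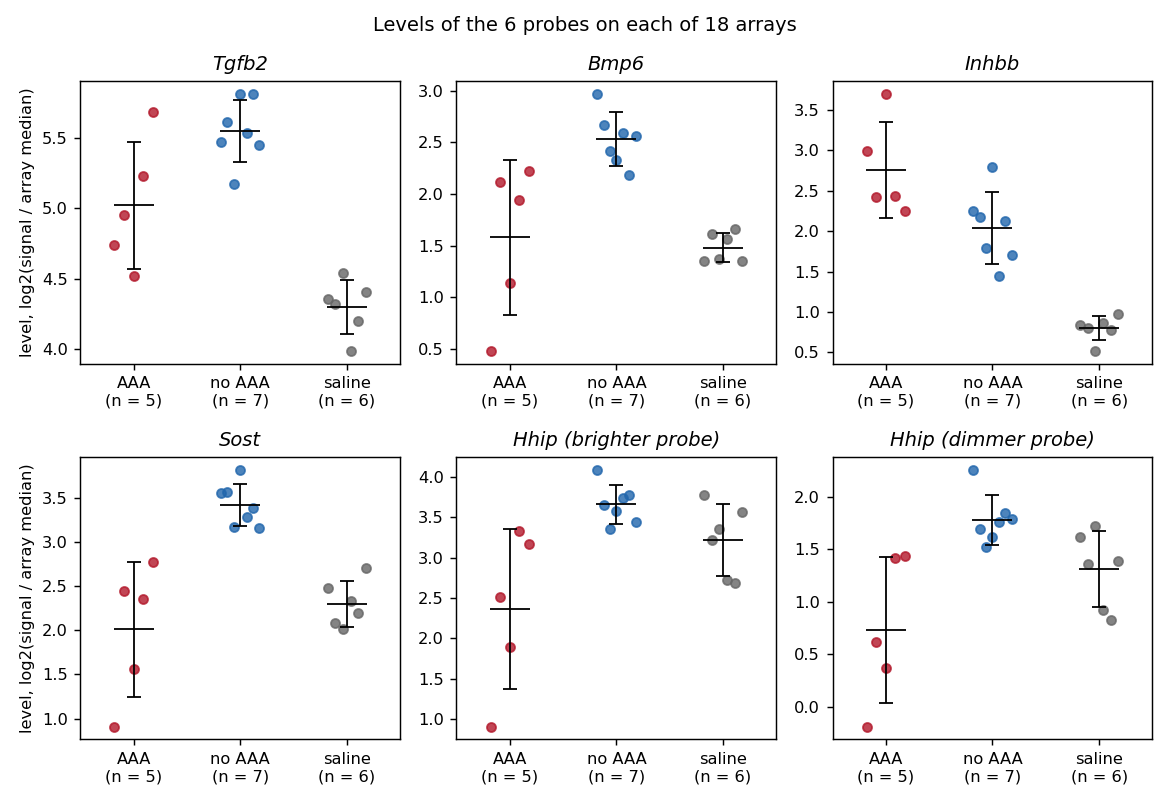
Level of each probe (vertical axis, log2 of signal over the array median) on the AAA, no AAA and saline arrays, 1 point per mouse, with the group mean and SD as the bar. Sost and both Hhip probes show every AAA point below every no AAA point, Inhbb shows every infused point above saline, and AAA has the widest SD for each probe (0.45 to 0.99).

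Set side by side, the 6 probes fell into 3 orders of group means. Inhbb was highest in AAA mice and lowest in saline. Tgfb2 and Bmp6 were highest in no AAA mice and lowest in saline. Sost and both Hhip probes were also highest in no AAA mice, but lowest in AAA mice. The fit did not tell the AAA and saline means apart for Bmp6, Sost and the dimmer Hhip probe, nor the no AAA and saline means for either Hhip probe. Counts of unlisted probes are not independent of the choice, since each comparison shares a group with one that had listed the probe. Among the 3 probes that AAA against no AAA had not listed, 2 were lower at an adjusted p under 0.05 (Tgfb2 and Bmp6, where 8.46% of tested probes were lower) and 1 was higher (Inhbb, where 10.8% were higher). Tgfb2 and Bmp6 had been listed for no AAA above saline. That favours a lower level in AAA mice than in no AAA mice, and a higher level than in saline mice. Both Hhip probes had been listed for AAA below no AAA. That favours a lower AAA level and a higher no AAA level against saline. Of 5 unlisted probes in AAA against saline, 1 was higher (Tgfb2, against 30.5% of tested probes) and 1 lower (the brighter Hhip probe, against 9.22%). In no AAA against saline 0 of the 2 unlisted Hhip probes passed in limma, where 35% of tested probes were higher and 10.1% lower. There 1 of them had an unadjusted p under 0.05 (0.046, limma), and 0 passed the adjusted unequal-variance test. The unequal-variance test named in the methods, adjusted over all tested probes, kept 0 of the 5 calls made in limma (adjusted p = 0.059 for Tgfb2 in AAA against saline and 0.18 to 0.23 for the other 4). Groups did not overlap for 3 probes in AAA against no AAA (all lower and all listed, against 2.39% of tested probes lower and 3.98% higher), 1 in AAA against saline (Inhbb, higher and listed, against 16.2% higher and 5.24% lower) and 4 in no AAA against saline (all higher and listed, against 14.7% higher and 5.39% lower).

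**Figure D2:**
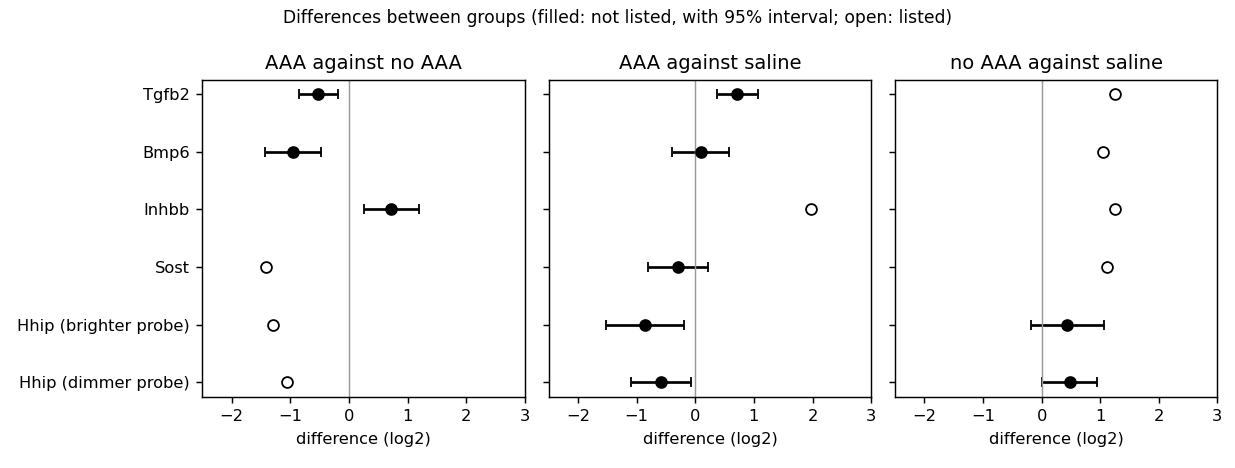
Difference between group means of each probe (horizontal axis, log2) in the 3 comparisons, with bars for 95% intervals from the fit. Filled points are comparisons that had not listed the probe, and open points, drawn without a bar, those that had. In AAA against no AAA only Inhbb lies above 0 (0.72), and in AAA against saline the intervals of Bmp6 and Sost cross 0.

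Since the study's lists required a 2-fold difference and an unadjusted p under 0.05, some probes stood close to that limit. Just inside it were Bmp6 in no AAA against saline (2.07-fold) and the dimmer Hhip probe in AAA against no AAA (2.08-fold lower). Just outside was Bmp6 in AAA against no AAA (1.94-fold lower), followed by the brighter Hhip probe in AAA against saline (1.81-fold lower). The median difference of all tested probes was -0.01 in AAA against no AAA, 0.13 in AAA against saline and 0.15 in no AAA against saline, so that a probe at 0 in a comparison with saline stood slightly below the bulk of probes. Under quantile normalization the shifts against saline were 0.0149 for AAA and 0.0685 for no AAA.

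The spread within AAA came from the same mice for most probes. AAA 1 and AAA 3 were the 2 lowest of 5 AAA arrays for Tgfb2, Bmp6, Sost and both Hhip probes, and the 2 highest for Inhbb. AAA 1 was the lowest for Bmp6 (0.48), Sost (0.91) and Hhip (0.91 on the brighter probe), and AAA 3 the lowest for Tgfb2 (4.52) and the highest for Inhbb (3.70). The other 3 AAA arrays stood closer to no AAA: AAA 5 reached 5.68 for Tgfb2, within the no AAA range, and 2.22 for Bmp6, at its lower end. As deviations from group means over the 18 arrays, Sost correlated with Bmp6 at r = 0.77 and with the brighter Hhip probe at 0.81, and Tgfb2 with Sost at 0.66, whereas Inhbb had negative values with all 5 other probes (-0.20 to -0.51). These correlations are descriptions over arrays that share BeadChips and scaling, and AAA had the widest SD of the 3 groups for every probe.

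**Figure D3:**
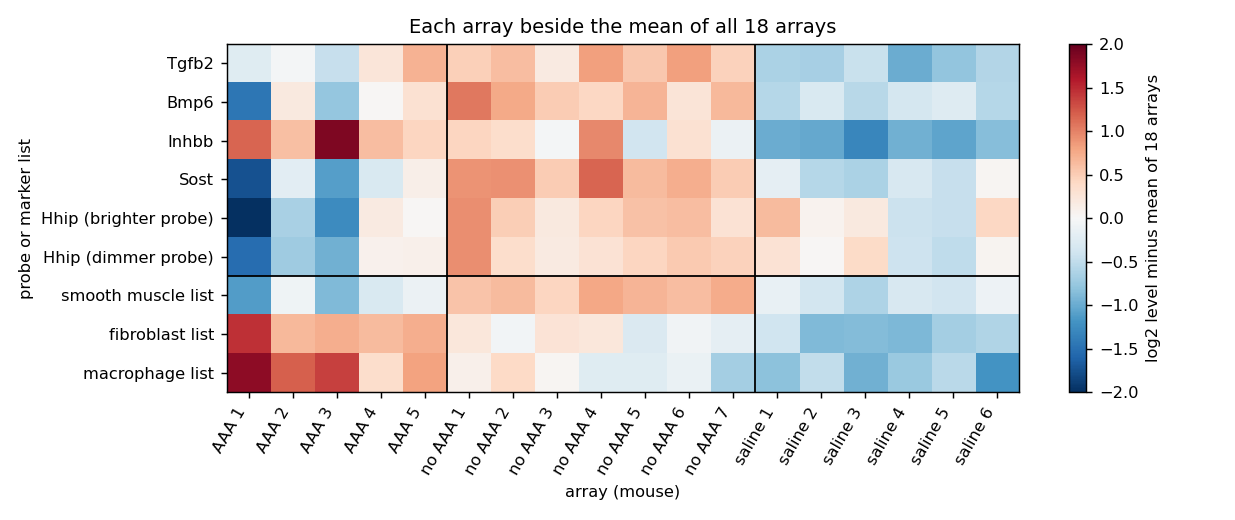
Each probe's level minus its mean of 18 arrays (colour, log2, from -2 to 2) on each array, AAA first, with the mean levels of 3 marker gene lists below the line. AAA 1 and AAA 3 are the darkest blue columns for Bmp6, Sost, Hhip and the smooth muscle list, and are red for Inhbb and the macrophage list.

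Markers of the cell types that a whole aorta holds moved with these genes. Of 15 smooth muscle genes, 8 had a named, tested probe (Acta2, Cald1, Kcnmb1, Synpo2, Slmap, Pdlim3, Ppp1r14a and Ppp1r12a). All 8 were detected on every array, and the study had listed all 8 as differing. Their summed signal over the array median ran from 78.6 to 159 in AAA mice, 222 to 288 in no AAA mice and 116 to 154 in saline mice, and 8 of 8 were lower in AAA mice than in no AAA mice at a limma adjusted p under 0.05, and that comparison had listed all 8, so the count is a description. The mean log2 level of the 8 genes was 3.10 on AAA 1 and 3.33 on AAA 3, 3.92 to 4.13 on the other AAA arrays, 4.65 to 5.00 in no AAA mice and 3.61 to 4.12 in saline mice. Over the 18 arrays it correlated with Sost at r = 0.97, with Bmp6 at 0.89, with both Hhip probes at 0.77, with Tgfb2 at 0.73 and with Inhbb at -0.01. As deviations from group means the values were 0.91 for Sost, 0.76 for Bmp6, 0.74 and 0.57 for Hhip, 0.58 for Tgfb2 and -0.40 for Inhbb. All these correlations are descriptions. Sost and Hhip had been listed as lower in the same comparison as the 8 genes, which favours a high r over the 18 arrays.

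Against this smooth muscle mean, the groups stood closer together for some genes than for others. Sost minus the smooth muscle mean was -1.71 ± 0.31 in AAA mice, -1.44 ± 0.23 in no AAA mice and -1.59 ± 0.11 in saline mice. For Bmp6 the same quantity was -2.14 ± 0.29 in AAA mice, -2.33 ± 0.29 in no AAA mice and -2.41 ± 0.26 in saline mice. Ranges overlapped between all groups for both genes. The brighter Hhip probe gave -1.35 ± 0.62 in AAA mice, -1.20 ± 0.27 in no AAA mice and -0.67 ± 0.40 in saline mice. The dimmer Hhip probe gave -2.98 ± 0.42 in AAA mice, -3.07 ± 0.26 in no AAA mice and -2.59 ± 0.42 in saline mice, with the AAA and no AAA means in the other order. Tgfb2 gave 1.31 ± 0.33 in AAA mice, 0.69 ± 0.17 in no AAA mice and 0.41 ± 0.29 in saline mice, so that relative to smooth muscle genes its AAA and no AAA means had the reverse of the order of its levels. Inhbb gave -0.95 ± 1.01 in AAA mice, -2.81 ± 0.42 in no AAA mice and -3.10 ± 0.08 in saline mice (all SD; n = 5, 7 and 6). These values have no test, since list and genes were both taken from transcripts listed on these arrays.

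**Figure D4:**
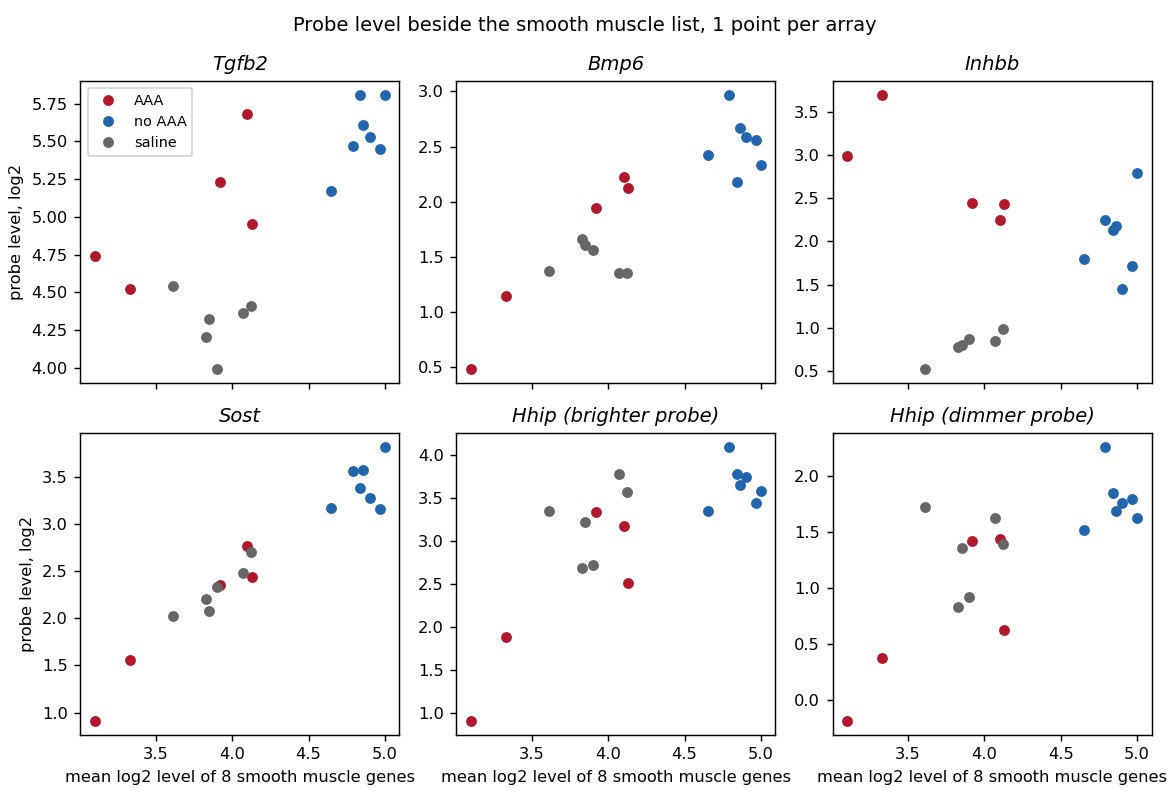
Level of each probe (vertical axis, log2) against the mean log2 level of 8 smooth muscle genes (horizontal axis), 1 point per array, coloured by group. Sost points of the 3 groups fall along 1 band (r = 0.97), whereas every AAA point of Inhbb lies above every saline point, also where the smooth muscle level is the same or lower. Sost and the 8 genes had all been listed as lower in AAA against no AAA, which favours a high r.

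Other marker lists differed in another order. Macrophage and monocyte markers (13 of 13 named) had summed signals of 750 to 1864 in AAA mice, 444 to 733 in no AAA mice and 241 to 454 in saline mice, and fibroblast markers (7 of 8) had 556 to 991 in AAA mice, 305 to 437 in no AAA mice and 180 to 271 in saline mice. Inhbb followed that order, with r = 0.84 to the macrophage and 0.88 to the fibroblast mean level over the 18 arrays, and 0.41 and 0.39 as deviations from group means. Its highest r over the 18 arrays was with the bone and cartilage list (0.91, and 0.53 as deviations). As deviations its highest was with the endothelial list (0.59, and 0.39 over the 18 arrays). The brighter Hhip probe had r = -0.66 to the macrophage mean in both forms. White fat markers (8 of 8) had summed signals of 361 to 593 in AAA mice, 197 to 474 in no AAA mice and 737 to 1071 in saline mice, and brown fat markers (6 of 6) 109 to 401 in AAA mice, 47.2 to 509 in no AAA mice and 749 to 1083 in saline mice, so that fat genes moved with every comparison against saline. Their part in the differences of Tgfb2, Bmp6, Inhbb, Sost and Hhip was not tested. Endothelial (3 of 9), lymphocyte (5 of 7) and sympathetic nerve (6 of 6) markers were summed at 39.3 to 132, 101 to 465 and 8.50 to 41.6 in AAA mice, at 18.5 to 54.9, 17.4 to 43.7 and 5.69 to 16.0 in no AAA mice, and at 37.5 to 47.8, 16.9 to 482 and 10.8 to 106 in saline mice. Lists with under 3 in 4 of their genes named stand for those genes alone.

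The BeadChip of the AAA arrays held 1 no AAA array, no AAA 7, which allowed a comparison within it. AAA minus no AAA 7 was -0.43 for Tgfb2, -0.98 for Bmp6, 1.05 for Inhbb, -1.15 for Sost, and -1.07 and -1.06 for Hhip. Every difference had the sign of the comparison over all arrays. All 5 AAA arrays lay below no AAA 7 for Bmp6, Sost and both Hhip probes, 4 of 5 for Tgfb2, and all 5 lay above it for Inhbb. For Sost and Hhip this followed from every AAA array lying below every no AAA array, and adds nothing about the BeadChip. No AAA 7 was also among the arrays behind the lists from which the probes were chosen. With BeadChip as a fixed block, which rests on no AAA 7, the limma adjusted p values were 0.45 for Tgfb2, 0.24 for Bmp6 and 0.19 for Inhbb, so none of the 3 unlisted probes kept its call. With BeadChip as a random block, the call was lost for Tgfb2 in AAA against no AAA (limma adjusted p = 0.057) and, in AAA against saline, for the brighter Hhip probe (limma adjusted p = 0.089). No AAA 7 differed from the mean of no AAA 1 to 6 by -0.39 (Inhbb) to 0.04 (Bmp6).

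Genes with the most similar pattern were taken from 1339 other named genes, all of them listed by the study as differing, over the 18 arrays. For Sost these were Niban1 (r = 0.962), A230069K02Rik (0.962) and Synpo2 (0.958), of which Synpo2 encodes an actin-associated protein. Bmp6 was closest to Kcnmb1 (0.908), the beta subunit of the calcium-activated potassium channel of smooth muscle, Acta2 (0.898), the smooth muscle actin, and Sost itself (0.895). Both Hhip probes were closest to Btc (0.907 on the brighter and 0.914 on the dimmer probe), the growth factor betacellulin, LOC243912 (0.897 and 0.868) and Bves (0.893 and 0.864). Tgfb2 was closest to Nfil3 (0.939), a basic leucine zipper repressor, Vgll3 (0.914) and Osbpl3 (0.886), and Inhbb to Rbms1 (0.963), Cdkn2b (0.939), a cyclin-dependent kinase inhibitor, and Tor4a (0.937). As deviations from group means, r stayed at 0.86 to 0.94 for the 3 neighbours of Sost, but was 0.48 for Osbpl3 beside Tgfb2, whose r over all arrays was 0.886.

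The other genes of these pathways were taken from lists written by role. Only probes that the study had listed as differing carry a name here, so 53 of 228 list genes could be followed, and counts among them say nothing of the genes without a name. Apart from the 5 genes, there were 48, of which the study had listed 8 in AAA against no AAA, 43 in AAA against saline and 14 in no AAA against saline. Among the 40 not listed in AAA against no AAA, 21 were higher in AAA mice and 2 lower at a limma adjusted p under 0.05 (beside 10.8% higher and 8.46% lower of all tested probes). Of the 5 not listed in AAA against saline, 2 were higher in AAA mice (beside 30.5%), and of the 34 not listed in no AAA against saline, 29 were higher in no AAA mice (beside 35%). The median differences of these unlisted genes were 0.47, 0.27 and 0.69, beside -0.01, 0.13 and 0.15 over all tested probes. These genes too have a name only because another comparison of the same arrays had listed them. Their counts, medians and single adjusted p values, here and below, are therefore descriptions. Gdf15, Gdf3, Fst, Smad3, Tgif1 and Hhat were named only for being higher in AAA mice than in saline mice, which favours a higher level against no AAA too. Ltbp1 and Wif1 were named only for being higher in no AAA mice than in saline mice, which favours a lower level in AAA mice.

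Among ligands, Tgfb3, the closest named relative of Tgfb2, averaged 4.59 in AAA mice, 4.76 in no AAA mice and 3.76 in saline mice. It was higher in AAA mice than in saline mice (difference 0.83, limma adjusted p = 5.5e-05), and differed by -0.17 between AAA and no AAA (limma adjusted p = 0.37). Gdf15 (0.65, limma adjusted p = 0.017) and Gdf3 (0.73, limma adjusted p = 0.0019), which are more distant members of the family, were higher in AAA mice than in no AAA mice. No other BMP ligand and no Wnt ligand had a name. The single named receptor of the TGF-beta family, Acvr1c, was lower in AAA mice than in saline mice (-1.29, a comparison that listed it), and is known from adipose tissue.

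Of 12 named genes of latency, activation and storage, AAA against no AAA had listed 3, all higher in AAA mice. These were Ltbp2 (1.38), a matrix protein of the latent TGF-beta binding family, Thbs1 (1.51), an activator of latent TGF-beta, and Nrros (1.15), which anchors latent TGF-beta on myeloid cells. Of the 9 not listed there, 5 were higher in AAA mice than in no AAA mice and 1 was lower, beside 10.8% and 8.46% of all tested probes. The 1 that was lower was Ltbp1 (-0.76, limma adjusted p = 0.0033), which tethers latent TGF-beta to the matrix, and its means of 1.78 in AAA mice, 2.54 in no AAA mice and 1.51 in saline mice had the group order of Bmp6. Both named antagonists, Fst (0.91), the follistatin that binds activins, and Bmper (1.47, listed in that comparison), a BMP-binding protein, were higher in AAA mice than in no AAA mice. Of the Smad group, Smad3 (0.51, limma adjusted p = 0.021) and the Smad corepressor Tgif1 (0.89) were higher in AAA mice than in no AAA mice, and Pmepa1 (0.23, limma adjusted p = 0.42) and Tob1 (0.01, limma adjusted p = 0.97) did not pass.

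Among 15 named genes that TGF-beta or BMP is known to induce, AAA against no AAA had listed 4, with Col1a1 (1.66), Comp (2.06) and Ltbp2 higher in AAA mice and the smooth muscle actin Acta2 (-1.12) lower. Of the other 11, 4 were higher in AAA mice than in no AAA mice, among them Lox (0.64), a crosslinker of collagen and elastin, beside 10.8% of all tested probes. Hamp, the hepcidin gene that BMP6 induces in liver, was at -0.08 in AAA mice, -0.05 in no AAA mice and 1.17 in saline mice, and so was highest in saline, unlike Bmp6. Its means in infused mice lay close to the level at which the dimmer Hhip probe was not detected (-0.19 on AAA 1). Saline mice spread widely for Hamp, from 0.17 to 2.59 (SD 0.89). Beside Sost, the secreted Wnt antagonist Wif1 was lower in AAA mice than in no AAA mice (-0.84, limma adjusted p = 0.014), with means of 4.16 in AAA mice, 5.00 in no AAA mice and 3.97 in saline mice. The antagonists Frzb (0.90) and Sfrp1 (0.44) were higher in AAA mice than in no AAA mice, while Sfrp2 (0.15) and Sfrp4 (0.41) did not pass. Of 4 named Wnt targets, Ccn4 (1.27) had been listed in AAA against no AAA, and 2 of the other 3 were higher in AAA mice. In the hedgehog list the only other named gene was Hhat, the acyltransferase that modifies hedgehog ligands, which was higher in AAA mice than in no AAA mice (0.72, limma adjusted p = 0.0024). Beside the 5 genes, the list genes lower in AAA mice than in no AAA mice at an adjusted p under 0.05 were Ltbp1 and Wif1, not listed there, and Acta2, which was.

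**Figure D5:**
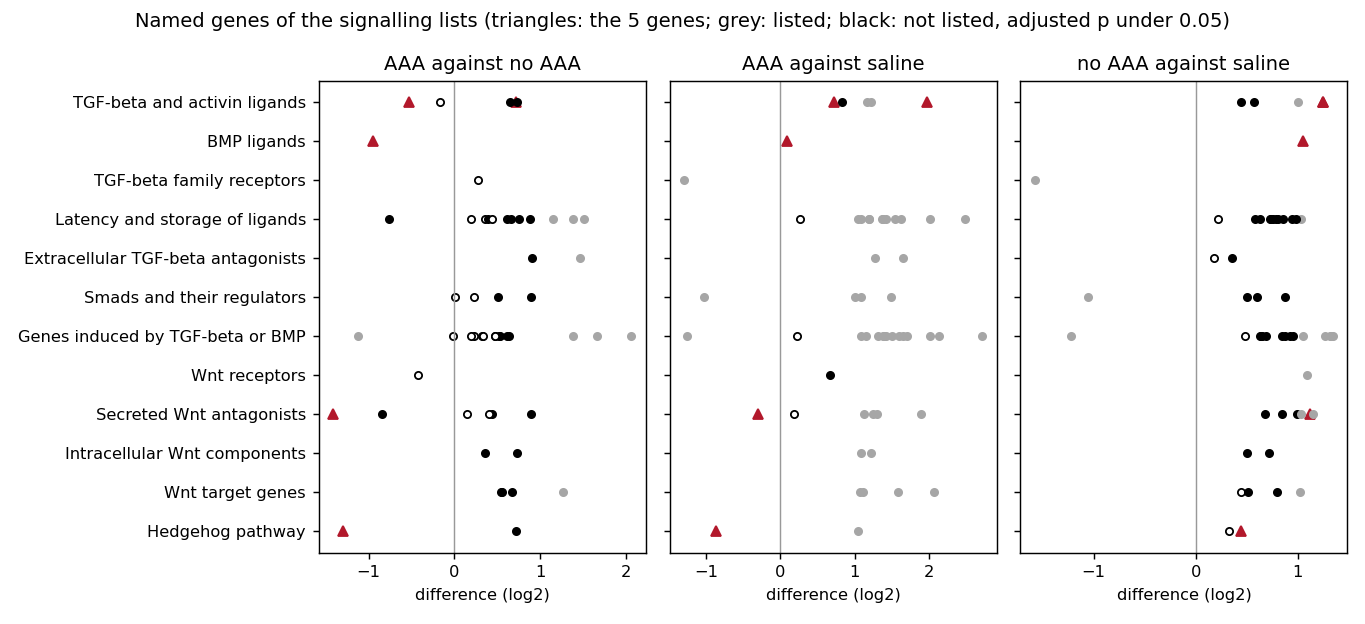
Differences (horizontal axis, log2) of the named genes of each signalling list in the 3 comparisons, with the 5 genes as triangles and other genes as circles, grey where the study had listed the gene in that comparison, and otherwise filled black where the adjusted p was under 0.05. In AAA against no AAA most circles lie above 0 (median 0.47 for the 40 genes not listed there) and the triangles of Tgfb2, Bmp6, Sost and Hhip lie below it. That split is favoured by the naming. Of the 48 other genes, 43 had been listed in AAA against saline, most as higher in AAA mice. Those 4 genes had been listed for high no AAA or low AAA values.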

How the data were processed

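Illumina Mouse-6 BeadChips were read by the authors in BeadStudio 2.3.41, which averages the beads of each probe. They deposited an unnormalised average signal intensity, a standard error over beads (intensity), a bead number (other) and a detection score as a fraction, for each of 46624 probes and 18 arrays. Another 72 per-array columns of that table were not used. A deposited matrix of ratios was also not used, since 12 of its 18 columns held another array's values. As a check of the labels, group means came within 2% of the listed fold for each of the 530, 1195 and 654 listed transcripts used here. Signals were divided by the array median, the per-chip step of the methods, and expressed as log2. Group differences came from limma 3.58.1 under R 4.3.3 (3 group means, eBayes with trend, two-sided) with Benjamini-Hochberg adjustment over 21434 probes. The pipeline was tested on simulated data. Gene names came from the study's lists, updated through RefSeq. In comparisons that had listed a probe no p is given. Named genes were the 6 probes, list genes with a name, and 3 neighbours by correlation. For each gene the brightest probe was used. Members and lists were chosen with earlier results of these data known. Alternatives were quantile normalization, normexp, other filters, the methods' test and threshold, array weights, BeadChip and replicate blocks, and leaving out each array.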

Additional observations from a re-analysis of the deposited data

How the results depend on the processing

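With each array left out in turn, the number of unlisted probes passing ranged from 1 to 3 in AAA against no AAA, from 1 to 3 in AAA against saline and from 0 to 1 in no AAA against saline. The signalling genes higher and lower, in fits chosen after seeing the data, ranged from 21 to 32 and from 5 to 8 in AAA against no AAA, from 44 to 46 and from 3 to 4 in AAA against saline, and from 40 to 46 and at 3 in no AAA against saline. For AAA against no AAA, 3 of 3 unlisted probes passed, against 1 with no filter on dim probes (with or without the methods' floor), 1 with only the groups compared, 1 with the replicate block, and 0 with BeadChip as a fixed block, the unequal-variance test after adjustment, and the methods' threshold in either test. For AAA against saline, 2 of 5 passed, against 3 with quantile normalization or array weights, 1 with normexp, no filter (with or without the floor), only the groups compared, BeadChip as a random block or the replicate block, and 0 with the adjusted unequal-variance test and the methods' threshold in either test. For no AAA against saline, 0 of 2 passed, against 2 with only the groups compared and 1 with array weights. The 0 under the methods' threshold followed from the probes being unlisted, since every unlisted difference was under 2-fold. The adjusted unequal-variance test gave 7 higher and 0 lower signalling genes in AAA against no AAA, beside 29 and 7, and 2 lower in AAA against saline, beside 4. Bmp6 in AAA against saline was 0.09, against -0.08 under quantile normalization, -0.04 without AAA 2 and -0.07 without AAA 5 (range over left-out arrays -0.07 to 0.37), never past the threshold. No description of a listed probe changed sign or moved by more than the pooled within-group SD of the groups compared. The cause of these changes was not tested.

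Same-numbered arrays correlated over 0.1 in 2 of 5, 1 of 5 and 1 of 6 pairs, so the numbers, which are positions on the BeadChip, were not taken as pairs. Under the replicate block Tgfb2 and Inhbb in AAA against no AAA had limma adjusted p values of 0.075 and 0.077, and the brighter Hhip probe in AAA against saline 0.10. The number of arrays limits precision, only 1 named probe is held for most of these genes, and mRNA of a whole aorta gives neither protein nor location. Any further probes of these genes that the study did not list would have no name here, so their values are not known.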
